A study of Mus musculus with 30 samples.

Results

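The Hox genes were measured in mouse aorta before and after a periaortic operation, in 10 groups of 3 arrays. Members were taken by name, as every probe whose gene name is Hox followed by a cluster letter from a to d and a number. That rule gave 39 genes on 44 probes, of 34728 gene names on the array. All 39 mouse Hox genes were therefore represented: 11 in cluster A, 10 in cluster B, 9 in cluster C and 9 in cluster D. A filter on signal over background left 29 of them for testing.

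Each array held total RNA from 1 aortic sample labelled with Cy3. Mice carried the strain label C57BL/6 and were wild type (WT) or uMT, a line that lacks mature B cells. In each genotype the samples were taken without an operation (pre), or 7 or 42 days after an operation. The operation applied physiological saline (sham) or 0.5 M CaCl2 around the abdominal aorta, the second of which is used to induce an aneurysm. The labels name the tissue of all 30 samples, pre and sham samples included, as an abdominal aortic aneurysm. They do not say whether samples of a group came from separate or pooled animals, so p-values measure the spread between these samples, which may be technical. Both kinds of operated mouse had surgery, and the pre mice had none.

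Hox genes encode transcription factors that bind DNA through a homeodomain. They lie in 4 clusters, in which the order of the genes along the chromosome matches the order in which they are used from head to tail of the embryo. Low-numbered genes mark anterior levels, and the highest numbers mark the tail, the distal limb and the urogenital tract. Adult blood vessels, and their smooth muscle cells and fibroblasts in particular, keep a pattern of Hox expression that reflects the level of the body from which they were taken.

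The probes that fall within the 2 conserved stretches of the proteins show what the members share and where the arrays read them. In the probes below, 60 bases each, capitals mark a 14-base run that encodes part of the homeodomain helix that contacts DNA, or a 12-base run that encodes the hexapeptide, the short stretch through which Hox proteins bind PBX partners. Both runs were searched on the probe strand only, with any base allowed at their variable positions. The homeodomain run was in 10 of the 55657 probes of the array (0.018%) and in 3 of the 44 Hox probes, 2 of which are shown. The hexapeptide run was in 4 probes (0.00719%), 1 of them a Hox probe. The positions, on mm9, are chr15:102787022-102787081 on the plus strand for Hoxc11, chr15:102768889-102768948 on the plus strand for Hoxc12 and chr6:52158194-52158253 on the minus strand for Hoxa6. The Hoxc11 and Hoxc12 probes are neighbours in the cluster and lie on either side of the end of detected expression described below.
Hoxc11: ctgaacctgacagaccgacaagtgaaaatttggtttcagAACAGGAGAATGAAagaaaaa
Hoxc12: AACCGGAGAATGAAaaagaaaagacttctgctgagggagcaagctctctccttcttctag
Hoxa6: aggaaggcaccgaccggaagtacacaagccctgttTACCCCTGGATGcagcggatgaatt

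Promoters are shown for 3 genes whose level was lower after CaCl2 than after sham. They are the 250 bases before the annotated start, 5′ to 3′ on the gene's strand, from RefSeq (GRCm38.p6, where 22 of the 39 members had an entry, 24 in all). The positions are chr6:52218574-52218823 on the minus strand for Hoxa7, chr6:52227371-52227620 on the minus strand for Hoxa9 and chr11:96281655-96281904 on the plus strand for Hoxb8. Capitals mark matches to 3 short motifs searched on both strands, which do not overlap here: TATAAA (the TATA box), GGGCGG (a GC box) and TGATNNAT (the paired site of PBX and Hox proteins). The GC box letters were in 32.7% of 32851 promoters of this length and in 10 of the 24 Hox entries. TATAAA was in 12.4% of promoters and in 4 Hox entries, and TGATNNAT in 7.68% and in 4.
Hoxa7: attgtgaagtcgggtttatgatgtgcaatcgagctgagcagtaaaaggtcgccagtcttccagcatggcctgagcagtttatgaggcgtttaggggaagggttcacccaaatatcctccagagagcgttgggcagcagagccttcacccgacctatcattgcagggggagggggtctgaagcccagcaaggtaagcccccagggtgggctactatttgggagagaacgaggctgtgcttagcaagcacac
Hoxa9: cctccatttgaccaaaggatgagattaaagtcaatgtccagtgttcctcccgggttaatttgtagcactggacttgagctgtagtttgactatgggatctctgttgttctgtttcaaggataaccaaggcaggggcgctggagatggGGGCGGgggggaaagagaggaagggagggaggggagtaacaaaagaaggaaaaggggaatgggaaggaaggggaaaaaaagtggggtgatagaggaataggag
Hoxb8: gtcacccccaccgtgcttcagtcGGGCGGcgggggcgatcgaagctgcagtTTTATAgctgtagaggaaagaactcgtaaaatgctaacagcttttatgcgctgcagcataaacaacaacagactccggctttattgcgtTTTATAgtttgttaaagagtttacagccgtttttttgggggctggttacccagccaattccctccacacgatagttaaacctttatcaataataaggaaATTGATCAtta
The Hoxa7 window held none of the 3 letter runs, and the Hoxa9 window held GGGCGG once, 103 bases before the start. The Hoxb8 window held GGGCGG once on the plus strand, TATAAA on the minus strand in 2 places and TGATNNAT on the minus strand 11 bases before the start. A match describes letters, not binding.

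Between 36.5% and 61.8% of probes were well above background on an array, by the scanner software's test, and no probe was saturated. The arrays shared 5 slides and 2 scan days, and no CaCl2 group had more than 1 array of its own sham group on its slide. One array stood apart: replicate 2 of WT sham day 42 was alone on its slide, had the fewest probes above background and correlated at 0.718 to 0.727 with its group mates, where the highest correlation between arrays was 0.993. Among the 29 tested Hox genes it lay more than 1 log2 unit above both group mates for 7 and as far below both for 8. Results that rest on it are given with and without it. As a check of the genotype labels, the B cell receptor chain gene Cd79b ranged from -3.34 to 2.17 over the 15 WT arrays (median 0.29) and from -4.10 to 0.01 over the 15 uMT arrays (median -1.13), so the ranges overlapped. The disrupted gene itself, Ighm, was looked for under that name and was not among the genes tested. All 12 contractile smooth muscle markers and all 9 fibroblast markers were well above background on all 30 arrays. Markers of neighbouring organs were mixed. Of 5 kidney markers Umod was above background on no array and Aqp2 on all 30. Of 5 brown fat markers Ucp1 and Elovl3 were on none and Cox7a1 and Cox8b on all 30, and of 5 adrenal markers Cyp11b2 was on none and Cyp21a1 on all 30.

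Hox transcripts were detected through the middle of each cluster and faded at its ends. Of the 39 genes, 15 had a probe well above background on all 30 arrays, 13 on 15 to 29 arrays, 7 on 1 to 14 and 4 on none. The share on all 30 arrays, 38.5%, equalled that of all gene names (13376 of 34728, 38.5%). In paralog groups 4 to 9, the trunk genes, 10 of 19 were on all 30 arrays, against 2 of 8 in groups 1 to 3, 3 of 6 in groups 10 and 11, and 0 of 6 in groups 12 and 13. In bulk tissue, fewer cells of a type and less RNA per cell cannot be told apart, here and in every comparison that follows.

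The clusters differed in how much of them was detected. Cluster A spans 103648 bp of chromosome 6 (mm9, 52105392 to 52209039, from its first to its last probe), and 6 of its 11 genes were on all 30 arrays, with the rest on 22 to 29. Cluster B, 170657 bp of chromosome 11 from 96057854 to 96228510, had 4 of 10 genes on all 30. Cluster C, 108215 bp of chromosome 15 from 102759058 to 102867272, had 5 of 9. Cluster D, 93812 bp of chromosome 2 from 74509248 to 74603059, had 0 of 9, and its most often detected genes, Hoxd4 and Hoxd8, were on 29.

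The gene at which detection on every array ended differed by cluster. In cluster A the highest-numbered gene on all 30 arrays was Hoxa10 (probe at 52181922-52181981 of chromosome 6), and the next, Hoxa11 (52192107-52192166), was on 29. Hoxa11 fell short only on the dim WT sham day 42 array, so this step rests on 1 array. In cluster B the last was Hoxb6 (96162563-96162622 of chromosome 11), and its neighbour Hoxb7 (96151211-96151270) was on 29, again all but the dim array. Further along, Hoxb8 was on 21, Hoxb9 on 15 and Hoxb13 on 0. In cluster C the step was sharp. Hoxc9, Hoxc10 and Hoxc11 were on all 30 arrays, and Hoxc12, whose probe is printed above, was on 3. On the log2 scale relative to the array's 75th percentile, the 30 values of the Hoxc11 probe ran from -1.72 to 1.52. Cluster D had no gene on all arrays.

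**Figure D1:**
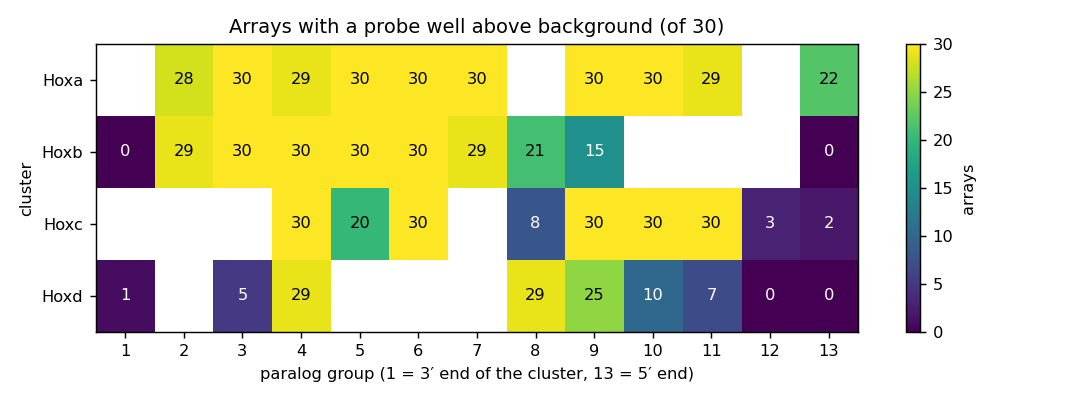
Number of arrays, of 30, on which a probe of the gene was well above background, by cluster (rows) and paralog group (columns, from 1 at the 3′ end to 13 at the 5′ end). Hoxc11 is at 30 and Hoxc12 at 3, and blank cells have no gene in the mouse or are not shown.

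At the anterior end Hoxb1 was on no array and Hoxd1 on 1, while Hoxa2 was on 28 and Hoxb2 on 29. At the posterior end Hoxd12 and Hoxd13 were on none, Hoxc13 on 2 and Hoxa13 on 22 through 1 of its probes, while its other probe was on 1. Hoxa13, Hoxd12 and Hoxd13 are genes of the limb tip and the urogenital tract. Counting per group, between 18 (WT sham day 42) and 28 (WT pre) Hox genes were on all 3 arrays. The 6 arrays with under 50% of probes well above background held 18 to 27 Hox genes (median 23.5), and the other 24 held 25 to 33 (median 28.5). Signal depth moved with the count, and its part in the group counts was not tested. Without the dim array 20 genes were on every array, and a less strict test of the scanner software gave 24.

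After CaCl2, the Hox genes that changed in single comparisons all fell, and they were genes of paralog groups 7 to 9 plus Hoxa13. In WT mice they lay in cluster A, and in uMT mice in cluster B. Values are log2 signals minus the array's 75th percentile, changes are differences of group means with the standard error of the fit, and a gene was called at an adjusted p under 0.05 (limma, Benjamini-Hochberg over 23267 genes). At day 7 in WT mice 2 of 29 Hox genes fell and 0 rose, where 6.59% of all genes were called. At day 42, 3 fell and 0 rose (10.4% of all genes). In uMT mice 1 fell at day 7 (0.894%) and 2 fell at day 42 (6.33%). The Hox shares, 6.9%, 10.3%, 3.45% and 6.9% in the same order, were close to those of all genes except in uMT mice at day 7, where the share is that of 1 gene. Without the dim array, which enters uMT comparisons only through the shared variance, genes of clusters A to C were called in uMT mice. At day 7, Hoxa9, Hoxb8 and Hoxb9 fell and Hoxc6 and Hoxc9 rose (9.82% of all genes). At day 42, Hoxa7, Hoxa9, Hoxb8 and Hoxb9 fell (15% of all genes).

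Hoxa9, a trunk-to-hindlimb gene best known for its part in blood stem cells and leukaemia, read 0.18, 0.38 and 0.01 on the 3 WT sham arrays of day 7. On the CaCl2 arrays it read -1.06, -1.43 and -1.69, below every sham array. The fall was 3-fold, a change of -1.58 ± 0.33 (adjusted p = 0.00776, limma). At day 42 the WT sham arrays read 0.28, 1.93 and 0.42, the second value being that of the dim array. The CaCl2 arrays read -0.99, -0.79 and -0.75, again with no overlap. That change was -1.72 ± 0.33 (adjusted p = 0.00224), and without the dim array it was -1.19 ± 0.27 (adjusted p = 0.00736). The fitted Hoxa9 probe lies at 52175595-52175654 of chromosome 6. A second one, at 52174165-52174224, gave smaller changes, -0.83 ± 0.23 (adjusted p = 0.0334) and -1.01 (adjusted p = 0.00768).

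Hoxa7, its neighbour in the cluster and a gene of trunk identity, read 2.78, 2.36 and 2.61 on the WT sham arrays of day 7 and 1.95, 1.79 and 1.36 on the CaCl2 arrays. At day 42 the sham arrays read 3.21, 2.99 and 3.24 and the CaCl2 arrays 2.28, 2.08 and 2.37. The groups overlapped at neither time. Hoxa7 fell by 0.88 ± 0.26 at day 7 (adjusted p = 0.0381, limma), which is 1.84-fold, and by 0.90 ± 0.26 at day 42 (adjusted p = 0.0248).

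Hoxa13 was also called at day 42 in WT mice, at -1.93 ± 0.62 (adjusted p = 0.0456, limma). Its sham arrays read -2.36, 0.09 and -3.63 and its CaCl2 arrays -3.19, -4.14 and -4.36, so the groups overlapped. The highest value is that of the dim array, and without it the change was -0.90 ± 0.50 (adjusted p = 0.241). The call was also lost without CaCl2 replicate 2 or 3 (0.136 and 0.155). Hoxa10 was not called at either time in WT mice (-1.05 ± 0.52 at day 7 and -1.46 ± 0.52 at day 42, adjusted p = 0.257 and 0.0703), although its groups did not overlap. Without the dim array it was called at day 7, with Hoxa7 and Hoxa9, and its change at day 42 was -0.53 ± 0.38 (adjusted p = 0.383).

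Of these WT calls, Hoxa9 at day 7 was lost without CaCl2 replicate 3 (-1.44, adjusted p = 0.0596), and Hoxa9 at day 42 was kept on leaving out any 1 array. Hoxa7 at day 7 was lost without any 1 of the sham replicates or CaCl2 replicate 2 or 3 (adjusted p from 0.0626 to 0.209), and at day 42 without CaCl2 replicate 1 or 2 (0.0574 and 0.0998). With slide as a fixed block, Hoxa9 at day 42 kept its call (-1.26, adjusted p = 0.0482), and Hoxa9 at day 7 (-1.73, adjusted p = 0.125), Hoxa7 at both times (0.436 and 0.116) and Hoxa13 (-0.27, adjusted p = 0.866) lost theirs.

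In uMT mice Hoxb9 carried the change. This gene, of the trunk and limb bud, read -2.33, -1.74 and -1.32 on the sham arrays of day 7, all well above background. It read -5.15, -4.58 and -3.88 on the CaCl2 arrays, none of which was above background, so the level there has only a bound. Hoxb9 was at least 3.99-fold lower after CaCl2 than after sham, with a fitted change of -2.74 ± 0.61 (adjusted p = 0.0359, limma). "At least" sets the sham mean against, on each dim array, the higher of the probe's own value and the lowest signal that was well above background, on this scale. With normexp background correction and quantile normalization (normexp below), where an offset of 50 added to each signal shrinks changes of dim probes, the change was -0.88 ± 0.21 (adjusted p = 0.0421). At day 42 Hoxb9 read -3.07, -0.85 and -3.22 on the sham arrays and -4.61, -5.01 and -5.33 on the CaCl2 arrays. Above background were 2 of the sham arrays and none of the CaCl2 arrays. Its fitted change was -2.60 ± 0.61 (adjusted p = 0.0106), and -0.92 with normexp (adjusted p = 0.00818). Against the bound of the CaCl2 arrays it was at least 1.58-fold lower, a figure that rests on sham replicate 2. Without that array the sham mean (-3.15) lay below that bound (-3.04), and no fold can be given. On the uMT pre arrays, 1 of them above background, the mean of Hoxb9 was -4.37. After CaCl2 it was -4.54 and -4.98, and after sham -1.80 and -2.38 (days 7 and 42). CaCl2 against pre was not tested.

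Hoxb8, its neighbour and also a gene of the thoracic and lumbar trunk, read -2.13, 0.32 and -2.92 on the uMT sham arrays of day 42 and -4.28, -4.27 and -4.57 on the CaCl2 arrays. Only 2 of the sham arrays and none of the CaCl2 arrays were above background, and the groups did not overlap. Hoxb8 was at least 2.75-fold lower than after sham (-2.80 ± 0.71, adjusted p = 0.0179, limma), and at least 1.43-fold without sham replicate 2. Its mean was -3.83 on the uMT pre arrays, 1 of them above background, beside -4.38 after CaCl2 and -1.58 after sham at day 42. With normexp its change was -1.05 and not called (adjusted p = 0.0667). At day 7 it was at -2.47 ± 0.71 (adjusted p = 0.0889), which was not called. The sham array with the highest Hoxb8 and Hoxb9 of day 42, replicate 2, decided both calls: without it Hoxb8 was at -1.85 (adjusted p = 0.141) and Hoxb9 at -1.84 (adjusted p = 0.0889). Hoxb8 was also lost without CaCl2 replicate 1 or 2 (0.061 and 0.0521), and Hoxb9 at day 7 without any 1 of the 3 sham arrays (0.105, 0.135 and 0.153) or CaCl2 replicate 1 (0.23). All uMT CaCl2 arrays were on a slide with no other group, so slide and CaCl2 cannot be told apart in uMT mice.

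The genes called in one genotype had these values in the other. Hoxa9 was at -0.83 ± 0.33 and -0.75 in uMT mice at days 7 and 42 (adjusted p = 0.223 and 0.209), with sham and CaCl2 arrays not overlapping at either time. Its second probe was at 0.00 and -0.71 there (adjusted p = 0.999 and 0.0724), so the probes disagreed at day 7. Hoxa7 was at 0.08 ± 0.26 and -0.82 (adjusted p = 0.925 and 0.0564). In WT mice Hoxb9 was at -1.57 and -0.84 (adjusted p = 0.13 and 0.357) and Hoxb8 at -1.40 and -0.04 (adjusted p = 0.273 and 0.975). The difference between the genotypes was itself tested and called no Hox gene at day 7 (0% of all genes) or at day 42 (0.107%). For Hoxa9 it was 0.75 ± 0.47 at day 7 and 0.96 ± 0.47 at day 42, for Hoxa7 0.96 ± 0.36 and 0.08 ± 0.36, for Hoxb8 -1.08 ± 0.9996 and -2.76 ± 0.9996, and for Hoxb9 -1.17 ± 0.86 and -1.76 ± 0.86 (uMT minus WT). Without the dim array the differences of day 42 were 0.44 ± 0.36 for Hoxa9, 0.16 ± 0.36 for Hoxa7, -2.50 for Hoxb8 and -1.73 for Hoxb9, and the WT change of Hoxb8 was -0.29 ± 0.80. The Hox genes with the smallest p were Hoxc11 at day 7 (1.39 ± 0.51, adjusted p = 1, limma) and Hoxb8 at day 42 (adjusted p = 0.774). At an unadjusted p under 0.05, 4 Hox genes and 981 of all genes passed at day 7, and 1 and 1317 at day 42.

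**Figure D2:**
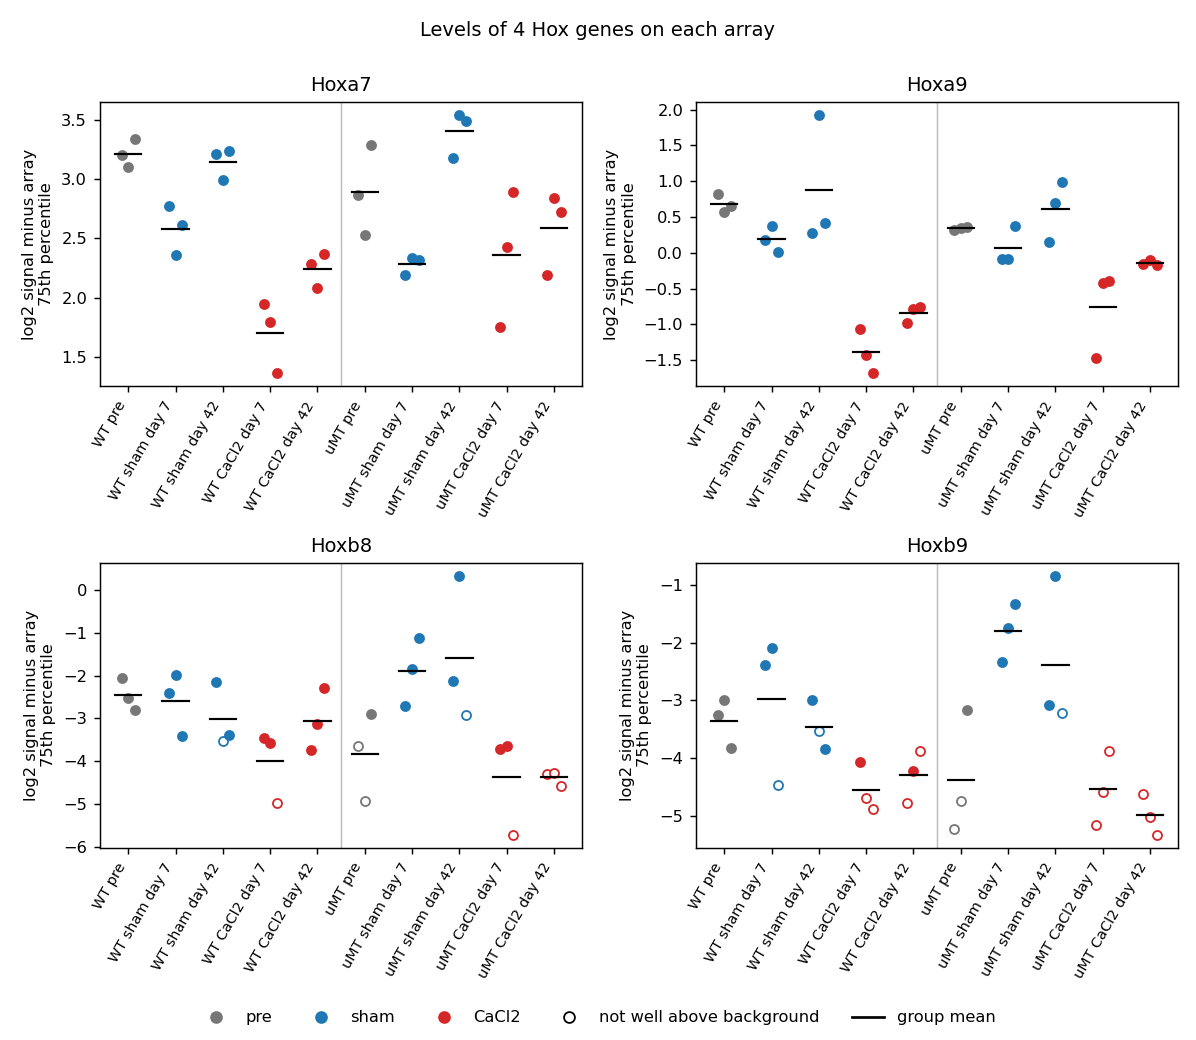
Log2 signal minus the array's 75th percentile (vertical axis) for Hoxa7, Hoxa9, Hoxb8 and Hoxb9 on each of the 30 arrays, by group (horizontal axis). Points are arrays, open where the probe was not well above background, and lines are group means. All 12 Hoxa9 CaCl2 values lie at -0.10 or lower and all 12 sham values at -0.09 or higher. Values of the second Hoxa9 probe, not shown, overlapped.

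Averaged over both genotypes and both days, 12 CaCl2 arrays against 12 sham arrays, 5 Hox genes fell and 1 rose, where 27.1% of all genes and 20.7% of the tested Hox genes were called. Hoxa9 changed by -1.22 ± 0.17 (adjusted p = 9.95e-06, limma), with no overlap between the 12 CaCl2 arrays (highest -0.10) and the 12 sham arrays (lowest -0.09). It was 2.33-fold lower on average, and its second probe changed by -0.64 ± 0.12 (adjusted p = 0.000211). On that second probe the arrays overlapped, with CaCl2 values up to -0.77 and sham values down to -1.19. Hoxa7 fell by 0.63 ± 0.13 (adjusted p = 0.000586) and Hoxa13 by 0.93 ± 0.31 (adjusted p = 0.0271), the latter above background on 5 of 12 CaCl2 and 11 of 12 sham arrays. The Hoxa13 call was lost without WT CaCl2 day 42 replicate 3 (0.0502), uMT sham day 42 replicate 3 (0.0527) or uMT CaCl2 day 7 replicate 1 (0.0538). Hoxb8 fell by 1.68 ± 0.35 (adjusted p = 0.000877, above background on 7 and 10) and Hoxb9 by 1.94 ± 0.30 (adjusted p = 4.26e-05, on 2 and 9). With normexp these averages were -0.57 for Hoxb8, -0.59 for Hoxb9 and -0.38 for Hoxa13, each still called (adjusted p = 0.017, 0.000187 and 0.0396).

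Hoxc9 was the 1 that rose. A gene of the same paralog group as Hoxa9 and Hoxb9, it ranged from 0.60 to 1.58 over the CaCl2 arrays (median 1.02) and from -0.07 to 1.01 over the sham arrays (median 0.44), and the ranges overlapped. Its average change was 0.51 ± 0.13 (adjusted p = 0.00396, limma), or 1.42-fold, and none of the 4 single comparisons called it (0.42, 0.60, 0.83 and 0.19). The 6 pre arrays lay at 0.65 to 1.54 (median 0.99), a range that overlapped those of both. The paralogs of group 9 thus differed in the direction of their called averages, with Hoxa9 and Hoxb9 lower, Hoxc9 higher and Hoxd9 at -0.71 ± 0.27 (adjusted p = 0.0533).

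Along the clusters, the median average change was -0.39 over the 11 genes of cluster A, -0.22 over 8 of B, 0.29 over 6 of C and -0.19 over 4 of D, beside 0.02 over all genes. The 29 Hox genes had a median of -0.17. Of the 29, 8 (Hoxa4, Hoxa5, Hoxa9, Hoxb5, Hoxb6, Hoxb8, Hoxb9 and Hoxd9) were below 0 in all 4 CaCl2 comparisons and 4 (Hoxb7, Hoxc5, Hoxc6 and Hoxc9) above 0 in all 4. Of all genes, 15.2% were below 0 in all 4 and 19.2% above. Where slide was a random block, no Hox gene was called in the average (Hoxa9 -1.26, adjusted p = 0.41). With that block and without the dim array 13 were called. Over all alternatives, from 0 to 12415 of all genes were called in this average. Without the dim array alone 10 of the 29 were (9 lower, 1 higher), all 6 among them, beside 45% of all genes.

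**Figure D3:**
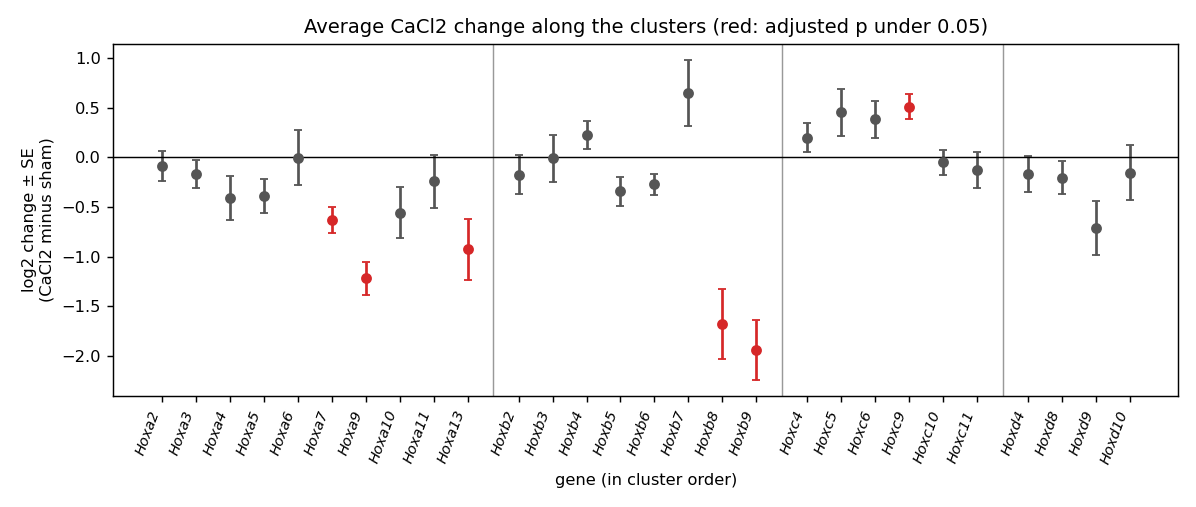
Average log2 change, CaCl2 minus sham, over both genotypes and both days (vertical axis) for 28 of the 29 tested Hox genes in cluster order (horizontal axis), with the standard error of the fit as bars. Red points have an adjusted p under 0.05: Hoxa7, Hoxa9, Hoxa13, Hoxb8 and Hoxb9 lie below 0 and Hoxc9 above.

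Markers of the aorta's cell types moved in the same comparisons. All 12 contractile smooth muscle markers fell in the average (median change -1.90), with 10 of 12 called in WT mice at day 7, 8 of 12 at day 42, 0 of 12 in uMT mice at day 7 and 5 of 12 at day 42. Their mean level was 5.58 to 5.92 on the WT sham arrays of day 7 and 2.91 to 4.04 on the CaCl2 arrays. All 7 macrophage markers rose (median 1.17), 5 of 9 fibroblast markers rose and none fell, and 3 of 7 endothelial and 3 of 5 white fat markers fell. Within the uMT CaCl2 group of day 7 the smooth muscle mean was 2.64, 5.23 and 5.78 on replicates 1 to 3, and Hoxa9 was -1.47, -0.43 and -0.39 on the same arrays. In that of day 42 the means were 3.41, 4.38 and 5.05, with Hoxa9 at -0.15, -0.10 and -0.17. In WT mice they were 4.04, 3.02 and 2.91 at day 7, with Hoxa9 at -1.06, -1.43 and -1.69. At day 42 they were 4.69, 4.07 and 3.51, with Hoxa9 at -0.99, -0.79 and -0.75. The order of the arrays by the 2 measures thus differed between groups. The part of these cell types in the Hox changes was not tested.

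In WT mice no Hox gene was called after the sham operation. At day 7 against pre 0 of 29 were called (2.37% of all genes), with 2 Hox genes and 2086 of all genes at an unadjusted p under 0.05 (limma). The smallest p was that of Hoxa3, a gene of the neck and pharyngeal arches. It read 2.13, 2.02 and 2.28 on the pre arrays and 1.28, 1.16 and 1.53 on the sham arrays, without overlap. Its change was -0.82 ± 0.27 (adjusted p = 0.169), and it was called without the dim array. At day 42 again 0 of 29 were called (0.168% of all genes), with 3 and 5409 at an unadjusted p under 0.05. The smallest p was that of Hoxc4, at 0.20, 0.18 and 0.16 on the pre arrays and -0.78, -0.93 and -0.07 on the sham arrays (-0.77 ± 0.29, adjusted p = 0.196). Without sham replicate 3 the count at day 42 was 4, and without replicate 1 it was 2. Over all alternatives, 0 to 6658 of all genes were called at day 42. These comparisons share their sham arrays with those of CaCl2 and sham.

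In uMT mice at day 7, 1 Hox gene rose and 1 fell against pre (2.54% of all genes). Hoxb9 read -5.22, -4.74 and -3.16 on the pre arrays, above background on 1 of them, and rose to the sham values given above. Its change was 2.58 ± 0.61 (adjusted p = 0.0255, limma). Hoxc9 read 1.49, 1.54 and 1.03 on the pre arrays and 0.32, 0.35 and 0.01 on the sham arrays, without overlap, and fell by 1.13 ± 0.26 (adjusted p = 0.0217), or 2.18-fold. Both were lost without pre replicate 1 (adjusted p = 0.153 and 0.104) or 2 (0.146 and 0.134) and without sham replicate 2 (0.105 and 0.0738) or 3 (0.131 and 0.116). Hoxc9 was lost without sham replicate 1 too (0.0574). In the average over genotypes and days Hoxc9 alone was called in sham against pre (3.15% of all genes), at -0.60 ± 0.16 (adjusted p = 0.0367, limma). Leaving out 1 array gave counts of 0 to 3, where 362 to 1803 of all genes were called over all alternatives.

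The broadest change of the family was in uMT mice at day 42 after sham, where 9 Hox genes rose and 1 fell against pre. That is 34.5% of the tested Hox genes, beside 17.4% of all genes, and the median Hox change was 0.61 beside -0.06 for all genes. The genes that rose came from all 4 clusters: Hoxa3, Hoxa4 and Hoxa6, Hoxb5, Hoxb6, Hoxb8 and Hoxb9, Hoxc4 and Hoxd4. Of these, 7 belong to paralog groups 3 to 6, and the other two to groups 8 and 9. Hoxd8, of the trunk, was the 1 that fell.

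Hoxa4, of the neck and upper thorax, read -3.23, -2.94 and -2.94 on the pre arrays and -1.92, -0.61 and -0.21 on the sham arrays. It rose by 2.12 ± 0.45 (4.34-fold, adjusted p = 0.00446, limma). Hoxa6, whose probe over the hexapeptide is printed above, read -1.08, -0.64 and -0.79 on the pre arrays and 0.23, 1.44 and 1.72 on the sham arrays, and rose by 1.97 ± 0.56 (adjusted p = 0.0194). Neither gene's groups overlapped.

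Hoxd4, the cluster D paralog of Hoxa4, read -2.15, -2.59 and -1.69 on the pre arrays and -1.27, 0.06 and -0.61 on the sham arrays (1.54 ± 0.36, adjusted p = 0.00737, limma). Hoxb5 read -2.24, -2.16 and -1.33 on the pre arrays and -0.81, -0.20 and -1.16 on the sham arrays (1.19 ± 0.29, adjusted p = 0.00913). Hoxc4 read -0.47, -0.88 and -0.02 on the pre arrays and 0.57, 0.82 and 0.52 on the sham arrays (1.09 ± 0.29, adjusted p = 0.0153). In each of these genes every sham array lay above every pre array.

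Hoxa3 rose by 1.05 ± 0.27 (adjusted p = 0.0133), from 1.61, 1.91 and 1.84 to 2.55, 3.06 and 2.88. Hoxb6 rose by 0.96 ± 0.21 (adjusted p = 0.00577), from -0.10, -0.06 and 0.10 to 0.65, 1.15 and 1.03. Hoxd8 fell by 1.01 ± 0.32 (adjusted p = 0.0355), from -0.15, -0.59 and 0.57 to -0.66, -0.79 and -1.76. The groups of these genes did not overlap. Those of Hoxb8 (2.25 ± 0.71, adjusted p = 0.0324) and Hoxb9 (1.99 ± 0.61, adjusted p = 0.0276) did, and each was above background on 1 pre and 2 sham arrays. With normexp Hoxb8 was at 0.95 and not called (adjusted p = 0.0674).

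These calls depended on single arrays. Without sham replicate 2, the array with the highest Hoxb8 and Hoxb9, 2 Hox genes were called, and without pre replicate 1, 3 were. Counts were 7 without pre replicate 2 and 8 without sham replicate 3. The number of all genes called moved as well, from 246 to 9551 over all alternatives. Without the dim WT array, which enters only through the shared variance, 15 were called, beside 40.3% of all genes. On the slide that holds pre replicates 2 and 3 and all sham arrays the changes were of like size (Hoxa4 2.02, adjusted p = 0.0558, and Hoxa6 1.85, adjusted p = 0.0486), and Hoxa6 alone was called. Sham replicates 2 and 3 and pre replicate 2 are among the 6 arrays with under 50% of probes above background, and without those 6 no Hox gene was called. In that fit the lone sham array of day 42 is assumed to vary like the other groups.

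Fibroblast and macrophage markers moved with this change. In the same comparison 6 of 9 fibroblast markers fell (median -1.16), from a mean level of 5.88 to 6.12 on the pre arrays to 4.09 to 5.24 on the sham arrays. Of 7 macrophage markers 3 fell, and of 12 contractile smooth muscle markers none was called (median -0.27). Their part in the Hox changes was not tested. Centring the arrays on the probes detected on all of them raised the median change of all genes by 0.32 in this comparison, and the Hox median then was 0.94.

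**Figure D4:**
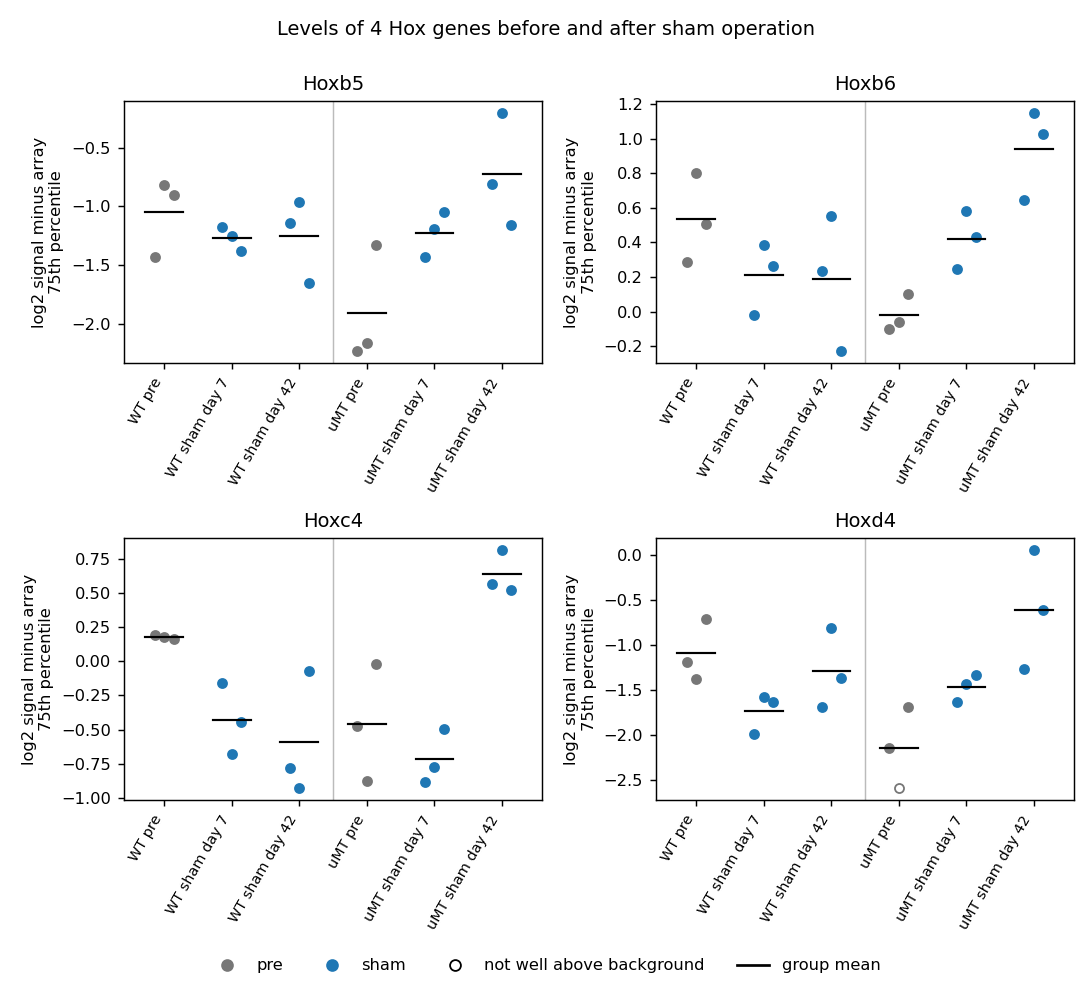
Log2 signal minus the array's 75th percentile (vertical axis) for Hoxb5, Hoxb6, Hoxc4 and Hoxd4 in the pre and sham groups of both genotypes (horizontal axis). Points are arrays, open where not well above background, and lines are group means. In uMT mice the 3 sham arrays of day 42 lie above the 3 pre arrays for all 4 genes.

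The genotypes differed in this sham change at day 42. This difference, and its counterpart at day 7, were tested after the data had been seen. At day 42, 4 Hox genes had a larger change in uMT than in WT mice and 0 a smaller one (5.19% of all genes). Hoxc4 differed by 1.86 ± 0.42 (adjusted p = 0.0148, limma), Hoxd4 by 1.74 ± 0.51 (adjusted p = 0.0474), Hoxb5 by 1.39 ± 0.41 (adjusted p = 0.0474) and Hoxb6 by 1.31 ± 0.30 (adjusted p = 0.0165).

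In WT mice none of the 4 genes was called. Hoxb6 read 0.29, 0.80 and 0.51 on the WT pre arrays and 0.23, 0.55 and -0.23 on the sham arrays of day 42 (-0.35 ± 0.21, adjusted p = 0.288). Hoxb5 read -1.43, -0.81 and -0.90, and then -1.14, -0.97 and -1.65 (-0.20 ± 0.29, adjusted p = 0.643). Hoxd4 read -1.18, -1.37 and -0.71, and then -1.68, -0.81 and -1.37 (-0.20 ± 0.36, adjusted p = 0.725). Without the dim array the WT changes were -0.60 for Hoxc4, -0.35 for Hoxb5, -0.53 for Hoxb6 and -0.44 for Hoxd4, and none was called.

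Without uMT sham replicate 2 none of the 4 differences was called (adjusted p from 0.0529 for Hoxc4 to 0.161 for Hoxd4). Without uMT pre replicate 1 Hoxc4 alone was called. With normexp Hoxd4 was at 0.83 and not called (adjusted p = 0.0645), and Hoxb5 at 0.90 was. The count was 2 without WT pre replicate 2 or 3, WT sham day 42 replicate 1 or 3, or uMT pre replicate 2. Without uMT pre replicate 3 it was 6, and without the dim WT array 8, beside 29.4% of all genes. Over all alternatives, 0 to 7260 of all genes were called in this comparison. Of 9 fibroblast markers 2, and of 7 macrophage markers 3, had a smaller change in uMT than in WT mice in the same test. At day 7 no Hox gene was called (0% of all genes), with 5 Hox genes and 1008 of all genes at an unadjusted p under 0.05 (limma). The smallest p was that of Hoxd4 (1.33 ± 0.51, adjusted p = 1).

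Between day 7 and day 42 after CaCl2 the family was not called to change. In WT mice 0 of 29 genes passed (0.55% of all genes), with 3 Hox genes and 1413 of all genes at an unadjusted p under 0.05 (limma). Hoxa3 had the smallest p, with a change of 0.64 ± 0.27 (adjusted p = 0.669). In uMT mice 0 passed (0.971% of all genes), with 1 and 2848 at an unadjusted p under 0.05. Hoxb3, a hindbrain and pharyngeal gene, read -0.31, 0.02 and 0.36 at day 7 and 1.76, 1.101 and 1.30 at day 42. Its groups did not overlap, and its change of 1.36 ± 0.47 (adjusted p = 0.203) was called without the dim WT array or with slide as a block. Its second probe, above background on 26 arrays, went the other way in this comparison (-0.95 ± 0.52, adjusted p = 0.494).

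Between the genotypes, averaged over the 5 conditions, 2 Hox genes were higher in uMT mice and 0 lower (2.97% of all genes). Both are posterior genes of cluster C, active in the lumbar and hindlimb region of the embryo. Hoxc10 ranged from -0.97 to 0.21 over the 15 WT arrays (median -0.22) and from -0.42 to 0.69 over the 15 uMT arrays (median 0.06). Hoxc11 ranged from -1.18 to 0.46 in WT mice (median -0.44) and from -1.72 to 1.52 in uMT mice (median 0.19). The ranges of both overlapped. The differences were 0.42 ± 0.12 for Hoxc10 (adjusted p = 0.0479, limma) and 0.59 ± 0.16 for Hoxc11 (adjusted p = 0.048), just inside the threshold. Leaving out 1 array gave counts from 0 (18 of the 30 arrays) to 10, the last without the dim WT array, beside 25.9% of all genes. Over all alternatives, 2 to 10631 of all genes were called. Neither gene was called with the replicate number as a block or the slide as a random block. Of the uMT arrays, 1 shared a slide with WT arrays.

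**Figure D5:**
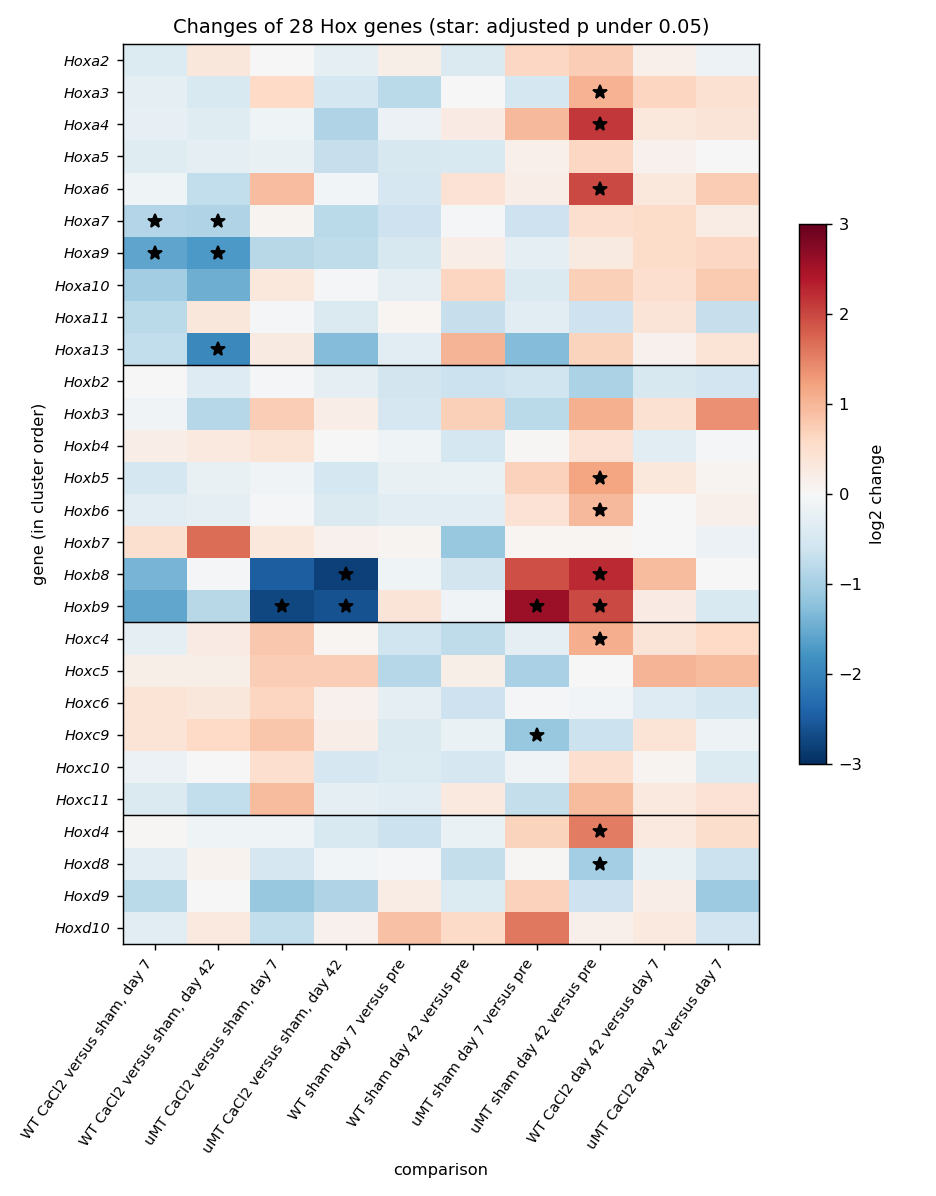
Log2 changes (colour, from -3 in blue to 3 in red) of 28 of the 29 tested Hox genes in cluster order (rows) in the 10 comparisons of 2 groups (columns). Stars mark an adjusted p under 0.05: the column of uMT sham day 42 against pre holds 10 stars, and those of WT sham against pre hold none.

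Genes known to set or to work with the Hox pattern were read from lists. Of the TALE cofactors, the PBX and MEIS proteins that bind DNA with Hox proteins, 8 were tested and none was called in the average of CaCl2 against sham (median 0.15). In uMT mice at day 42 after sham, Pknox1, a PREP cofactor, fell by 0.75 ± 0.25 (adjusted p = 0.043, limma). Of the Polycomb proteins, which keep Hox genes silent, 5 of 18 rose and 1 fell in the CaCl2 average (median 0.23). Ezh2, the methyltransferase of the complex, changed by 0.84 ± 0.15 (adjusted p = 0.00017), and Phc2 (0.55), Cbx2 (0.46), Cbx8 (0.45) and Jarid2 (0.31) rose as well. Phc3 fell by 0.55. These counts, 6 of 18, stand beside the 27.1% of all genes called in that comparison.

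Of the activators and demethylases that keep Hox genes open, 3 of 10 rose in the CaCl2 average, near the 27.1% of all genes called: Dot1l by 0.55 ± 0.12 (adjusted p = 0.000999, limma), Kdm6b by 0.37 and Wdr5 by 0.30. In uMT against WT mice Kdm6b (0.48), Kmt2b (0.46) and Dot1l (0.40) were higher (2.97% of all genes called). In uMT mice at day 42 after sham, Jarid2 rose by 0.86 and Dot1l by 0.88, and both also differed between the genotypes in that change (1.24 and 1.45).

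Of the retinoic acid pathway, the signal that opens the anterior ends of the clusters in the embryo, 3 of 13 tested genes rose in the CaCl2 average and 1 fell, near the 27.1% of all genes called. Crabp2, which carries retinoic acid into the nucleus, changed by 2.36 ± 0.35 (adjusted p = 2.14e-05, limma), Stra6, a receptor for retinol uptake, by 1.70 ± 0.31, and the receptor Rara by 0.88 ± 0.14. The degrading enzymes Cyp26a1 and Cyp26c1 were on no array. In uMT mice at day 42 after sham, where Hoxa3 and Hoxa4 rose, 2 of the 13 fell, the synthesising enzyme Aldh1a3 by 1.38 among them, and none rose (17.4% of all genes called).

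Cdx1, Cdx2 and Cdx4, the caudal factors that act on the clusters in the embryo, were on no array. Egr2, a hindbrain regulator of Hox genes, rose in the CaCl2 average by 1.56 ± 0.29. It is also expressed in macrophages, whose 7 markers rose, and their part in this rise was not tested. Of the genes that flank the clusters, 2 of 10 rose and 3 fell in the CaCl2 average, beside 27.1% of all genes called. At the ends of cluster A, Skap2 rose by 0.72 and Hibadh fell by 0.34. Beside cluster C, Cbx5 fell by 0.43 and Calcoco1 by 0.74. Skap1, beside cluster B, rose by 2.25, and it is expressed in T cells, whose part was not tested. Of the noncoding RNAs of the clusters, Hoxa11os in cluster A was on all 30 arrays, as was 1 of the 5 HOTAIR probes in cluster C, whose other probes were on 6 to 25. Neither gene was called after CaCl2, and Hottip, at the 5′ end of cluster A, was on none. Of the 39 other probes that map within the 4 cluster intervals, 13 were on all 30 arrays and 4 on none.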

How the data were processed

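Total RNA of 30 aortic samples was hybridised to one-colour Agilent arrays of mouse probes. Spot intensities were deposited as made by Feature Extraction 10.7.1.1 with protocol GE1_107_Sep09 and mm9 coordinates, per the file headers; the submitters' processing notes name version 9.5.1.1. The software subtracted background and removed spatial trends, per the file headers. The series text and the labels name different RNA purification kits (RNeasy, SV Total RNA). A table of intensities deposited by the authors has a linear scale, a median of 24.2 in each of 30 columns and 1 shared distribution, follows each array's order, and served as an alternative; how it was made is not given in the sources used here.

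Spots of a probe were averaged, log2 values were centred on each array's 75th percentile over 55657 probes, and 33224 probes well above background on all 3 arrays of a group were kept. Each of 23267 genes was read from its brightest kept probe. limma 3.58.1 in R 4.3.3 fitted 1 mean per group (20 residual degrees of freedom), with Benjamini-Hochberg adjustment per comparison at 0.05, over 15 comparisons and 2 added after the data were seen. The fit was tested on simulated data. Members, the 18 lists and tests were chosen with earlier results of these data known. Named are all called Hox genes (beyond 8 in 1 direction of a comparison, the 8 with the largest change), the smallest p where none was called, and the last gene of each cluster detected on all 30 arrays with its neighbour. Others, Cd79b among them, were named after their values were seen. The listed alternatives changed scaling, filter, probe choice, samples, slide block and replicate block. Replicate numbers did not pair the arrays: in 0 of 10 comparisons did every same-numbered pair correlate above 0.1 in its deviations (-0.378 to 0.29). Some items are not reported here.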

Additional observations from a re-analysis of the deposited data

Results flagged for a closer look

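The change from pre to sham at day 42 differed between the genotypes for 4 Hox genes, by the test of the difference itself (limma, adjusted p under 0.05, a comparison added after the data were seen). The difference, uMT minus WT, was 1.86 for Hoxc4, 1.74 for Hoxd4, 1.39 for Hoxb5 and 1.31 for Hoxb6. In each of the 4, all 3 uMT sham arrays lay above all 3 uMT pre arrays, which also entered that test. Of the 29 tested Hox genes, 13 had no overlap between these groups. In WT sham day 7 against pre, where none was called, 11 had none. The share of all genes without overlap was not computed, so these counts do not set the family apart. Groups of 3 arrays were too small to be searched for single arrays far from the others.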

How the results depend on the processing

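No called Hox change turned its direction under any alternative run. The counts of Hox genes called that moved by over 1.5 times are given here, and the cause was not tested. Under quantile normalization, and with the authors' value table, the counts were 1 (WT CaCl2 versus sham, day 7), 0 (uMT, day 7), 1 (uMT, day 42), 1 (uMT sham day 7 versus pre), 0 (sham versus pre, average) and 2 (genotype difference in sham change, day 42). With centring on probes detected on all arrays they were 1 (WT CaCl2 versus sham, day 7), 0 (uMT versus WT) and 7 (genotype difference in sham change, day 42). That centring also turned the small Hox medians of uMT sham day 7 versus pre (0.12), uMT CaCl2 day 42 versus day 7 (0.10) and the sham average (0.09) to above 0, and normexp that of the sham average (0.02). With no detection filter, counts were 1 and 1 (WT CaCl2 versus sham, days 7 and 42), 0 (uMT, day 7), 0 (uMT versus WT), 0 (sham average) and 2 (genotype difference in sham change, day 42). With only the groups compared, they were 7 and 0 (WT CaCl2, days 7 and 42), 0 and 0 (uMT CaCl2), 1 (WT sham day 7), 1 and 2 (uMT sham, days 7 and 42), 0 (sham average) and 0 (genotype difference in sham change, day 42). Without the arrays under 50% of probes well above background, they were 4 (WT CaCl2, day 7), 7 and 0 (uMT CaCl2), 1 (WT sham day 7), 1 and 0 (uMT sham), 0 (uMT versus WT), 0 (sham average) and 1 (genotype difference in sham change, day 42). With slide as a random block (correlation 0.782), they were 0 and 1 (WT CaCl2), 0 and 0 (uMT CaCl2), 1 (WT sham day 7), 1 (uMT CaCl2 day 42 versus day 7), 0 (uMT versus WT), 0 (CaCl2 average) and 0 (sham average). With that block and no dim array (correlation -0.0687), they were 5 (WT CaCl2, day 7), 8 and 5 (uMT CaCl2), 1 (WT sham day 7), 1 (uMT CaCl2 day 42 versus day 7), 12 (uMT versus WT), 13 (CaCl2 average) and 8 (genotype difference in sham change, day 42). With slide as a fixed block, they were 0 and 1 (WT CaCl2), 1 (uMT sham day 7), 1 (uMT CaCl2 day 42 versus day 7) and 0 (sham average). Within 1 slide they were 1 (WT sham day 7) and 0 and 1 (uMT sham, days 7 and 42). With the replicate number as a block they were 0 (uMT versus WT) and 2 (genotype difference in sham change, day 42), and no other count moved by over 1.5 times; 5 of 30 arrays were closest to an array of their own number. Leaving out 1 array gave 0 to 3 and 1 to 6 (WT CaCl2, days 7 and 42), 0 to 5 and 0 to 4 (uMT CaCl2), 0 to 1 and 0 to 4 (WT sham), 0 to 3 and 2 to 15 (uMT sham), 0 to 0 and 0 to 1 (CaCl2 day 42 versus day 7, WT and uMT), 0 to 10 (uMT versus WT), 5 to 10 (CaCl2 average), 0 to 3 (sham average), 0 to 0 (genotype difference in CaCl2 response, both days), 0 to 0 and 0 to 8 (genotype difference in sham change, days 7 and 42) and 15 to 20 genes detected on all arrays. Detection gave 24 genes with the less strict background test and 24 without the arrays under 50%. The number of all genes called moved too, and the Hox counts here stand without the share of each alternative. Over all genes, the CaCl2 average called from 0 to 12415. The ranges were 53 to 7849 and 0 to 6220 (WT CaCl2, days 7 and 42), and 0 to 4086 and 0 to 4879 (uMT CaCl2). After sham they were 276 to 1939 and 0 to 6658 (WT), and 9 to 3168 and 246 to 9551 (uMT). They were 2 to 10631 (uMT versus WT), 362 to 1803 (sham average) and 0 to 7260 (genotype difference in sham change, day 42). Hoxa9 kept its call in that average in 36 of 37 alternatives, and Hoxa7, Hoxb8, Hoxb9 and Hoxc9 in 35 of 36, slide as a random block being the exception each time. Normexp background correction with quantile normalization made 15 of 33 called changes 1.55 to 3.27 times smaller on the log2 scale, and 12 of these were still called. In uMT sham day 42 versus pre they were 0.98 for Hoxa4, 0.68 for Hoxb5, 0.75 for Hoxb9 and 0.69 for Hoxd4, and in uMT sham day 7 versus pre 0.88 for Hoxb9. Hoxa13 in WT CaCl2 versus sham, day 42, was at -0.89. Signal over background limits Hoxa13, Hoxb8 and Hoxb9, which were above it on 22, 21 and 15 arrays.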
